A study of Cavia porcellus with 13 samples.

Results

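Bitten skin of guinea pigs made immune to tick saliva was compared with unbitten skin of naive guinea pigs in 5 bulk RNA sequencing libraries, 3 of saliva immune and 2 of naive skin, out of 13 in the series. Both groups come from the experiment with the title prefix CK1, and a gene was kept when it reached 1 TPM or more in at least 2 of the 5 libraries. The TPM of a gene is its share of a library's transcripts, scaled for gene length and multiplied to a fixed library total. The filter kept 14294 of 26855 genes, 2551 of them without a symbol, and the other 12561 genes were not tested.

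The 3 saliva immune libraries were labelled as bitten and sampled 4 days after the bite, and the 2 naive libraries carry the label of no bite with the same day. The remaining CK1 libraries are 3 of skin bitten in a first exposure, also at day 4, and they serve here as the second reference. The EF19-5 experiment (5 libraries of repeatedly bitten and naive skin) entered the model only to estimate the spread, and the labels explain neither prefix. Naive skin below means the 2 CK1 naive libraries unless the EF19-5 library is named. How the animals were immunized, their strain, age and sex, the tick species, and whether libraries of a group came from separate animals are not given, so each p-value measures only the spread between these libraries. Every saliva immune animal was also bitten, so saliva immunity and the bite cannot be told apart in the comparison with naive skin.

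Ticks feed for days from a pool in the dermis, and their saliva holds proteins that dampen clotting, complement, itch and leukocyte recruitment. Guinea pigs are a classical model of acquired tick resistance, in which a host sensitized to saliva reacts at the bite with mast cells, basophils and other leukocytes. Macrophages clear debris and antibody-bound material, neutrophils kill with a membrane oxidase, and complement proteins tag targets for both.

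Across all genes, saliva immune skin carried more genes above than below naive skin, yet 1 gene passed the test: the fitted difference was above 0 in 67.6% of the genes and below 0 in 32.4%. With limma and Benjamini-Hochberg adjustment, the called share was 0.007% of the tested genes at an adjusted p under 0.05. At an unadjusted p under 0.05, 1397 genes (9.77%) lay higher and 310 (2.17%) lower. In 2618 genes (18.3%) all 3 saliva immune libraries lay above both naive libraries, and in 909 (6.36%) all 3 lay below both. Genes of these 2 kinds are called separated higher and separated lower from here on. Each list count against naive skin below is to be read beside these shares of 18.3% and 6.36%, unless another setting is named. A gene under 1 TPM in both naive libraries could enter only through the saliva immune libraries. That favours a higher reading of such genes in all these counts. Exact permutation of 3 against 2 libraries cannot give a two-sided p below 0.2, so single genes rest on the limma fit.

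Taken over every tested gene, the log2 difference had a median of 0.14. Scaling the libraries by the median of gene ratios moved it to -0.02, with 1076 genes higher and 942 lower at an unadjusted p under 0.05, and 2315 (16.2%) separated higher against 2035 (14.2%) separated lower. List medians are therefore set beside 0.14. Naive replicate 2 stood apart in part of this: without it the all-gene median was 0.00, 339 genes lay higher and 115 lower at an unadjusted p under 0.05. Pearson's r of log2(TPM + 1) between libraries was 0.926 to 0.978 within saliva immune skin, 0.972 between the naive libraries and 0.903 to 0.97 across the groups.

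**Figure D1:**
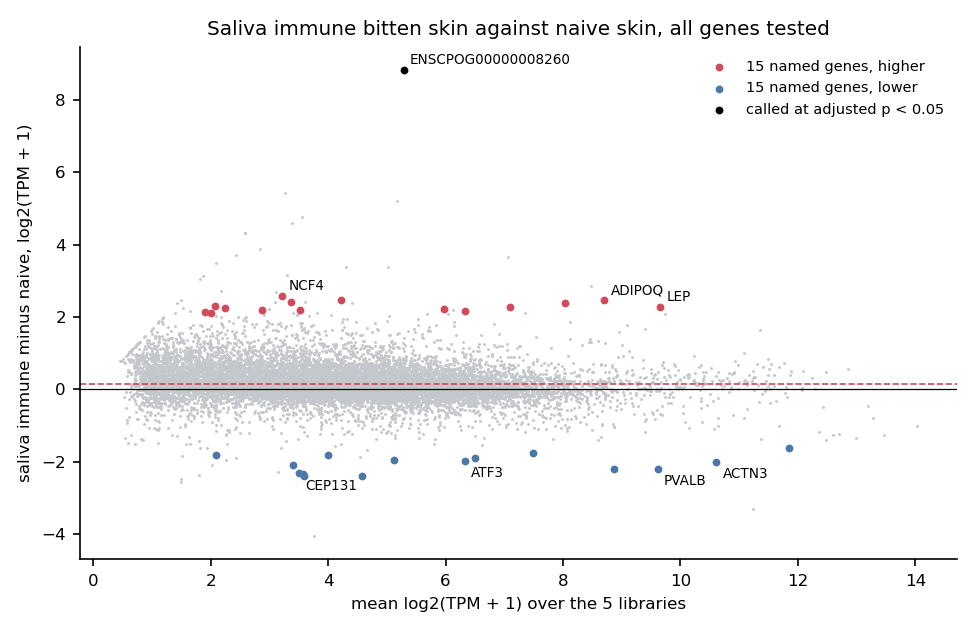
Each point is a gene, with its mean log2(TPM + 1) over the 5 libraries across and the difference of saliva immune (n = 3) minus naive (n = 2) skin up; the dashed line is the median of 0.14. The called gene ENSCPOG00000008260 sits far above all others, and the 15 named genes each way reach no more than 2.57 up and -2.40 down.

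The tissue was skin with some muscle and fat beneath it. KRT14, a keratin of basal keratinocytes, stood at 9174, 7503 and 9469 TPM in saliva immune skin and at 8013 and 4287 TPM in naive skin. COL1A1, a collagen chain of dermal fibroblasts, was at 981, 817 and 1440 TPM against 1405 and 716 TPM. The 47 skeletal muscle genes tested summed to 10.5%, 11.7% and 2.66% of all TPM in saliva immune skin and to 10.6% and 18.5% in naive skin. The groups overlap in all 3 measures, with saliva immune replicate 3 lowest and naive replicate 2 highest in muscle. The keratin KRT10 and the globins HBA1 and HBB were not matched by symbol. In bulk tissue, fewer cells of a type and less RNA per cell cannot be told apart, which holds for every group of genes below.

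ENSCPOG00000008260, a gene without a symbol in the deposited table, was the one gene called at an adjusted p under 0.05. It stood at 422, 422 and 509 TPM in the saliva immune libraries and was listed at 0 in both naive libraries (limma, adjusted p = 5.03e-09). First exposure skin held it at 455, 569 and 498 TPM, and saliva immune and first exposure skin overlap. All 6 bitten CK1 libraries carried it at 422 to 569 TPM, and its identity is not known from the sources used here.

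Of the genes just outside the threshold, 4 are given here. ENSCPOG00000033173, also unnamed, was at 5.66, 7.13 and 15.5 TPM against 0.564 and 0.366 TPM (limma, adjusted p = 0.0503). LCAT, the plasma enzyme that esterifies cholesterol on lipoproteins, was at 23.6, 22.4 and 22.8 TPM against 7.34 and 6.53 TPM, a log2 difference of 1.60 (SE 0.207, adjusted p = 0.0597 by limma). CEP131, a protein of centriolar satellites, was at 5.43, 3.39 and 6.45 TPM against 37.2 and 22.1 TPM, a log2 difference of -2.32 (SE 0.307, adjusted p = 0.0597 by limma). ENSCPOG00000035456, unnamed, was at 0.857, 0.423 and 0 TPM against 6.24 and 8.35 TPM (adjusted p = 0.0597, limma) and listed at 0 in first exposure skin. The groups do not overlap in any of the 4, and in the first 3 named, first exposure skin (7.67 to 8.32 TPM for ENSCPOG00000033173, 16.7 to 21.3 TPM for LCAT and 3.79 to 6.47 TPM for CEP131) lay near the saliva immune libraries. The unbitten EF19-5 library was not at the CK1 naive level throughout: ENSCPOG00000033173 was at 11.1 TPM and CEP131 at 5.27 TPM there, both near the bitten CK1 libraries, while LCAT was at 7.81 TPM. ENSCPOG00000033173 passed in 11 of 17 other fits, CEP131 in 6 of 17, LCAT in 5 of 17 and ENSCPOG00000035456 in 5 of 14. All but CEP131 were singled out after their values were seen.

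Macrophage genes lay higher as a group. Among monocyte and macrophage genes, 17 of 20 tested were separated higher and 0 lower, beside 18.3% and 6.36% of all genes, and their median log2 difference was 1.26. None was called (smallest adjusted p = 0.289, limma). CD14, the co-receptor for bacterial lipopolysaccharide, was at 15.4, 23 and 26.3 TPM in saliva immune skin and at 7.32 and 3.95 TPM in naive skin. CD163, the scavenger receptor for haemoglobin bound to haptoglobin, was at 18.2, 37.9 and 23.9 TPM against 8.89 and 6.31 TPM. MRC1, the mannose receptor of tissue macrophages, was at 10.1, 19.8 and 12.8 TPM against 4.22 and 4.35 TPM. Saliva immune replicate 2 was the highest library for CD163 and MRC1, and replicate 3 for CD14. The unbitten EF19-5 library lay between the groups in CD14 (14.8 TPM), CD163 (14.8 TPM) and MRC1 (9.7 TPM), close to the lowest saliva immune library. In CD68 it was at 62.9 TPM, within the saliva immune range of 52.3 to 103 TPM. The lysosomal protein CD68 and the adaptor TYROBP (22.6, 44.6 and 42.5 TPM against 15.9 and 8.61 TPM) lay higher as well. GPNMB, a lysosomal glycoprotein, overlapped between the groups at 74.2, 54.5 and 125 TPM against 99.5 and 87.7 TPM, as did CSF1R. Below the filter, MSR1 and CX3CR1 reached at most 1.34 TPM in the 5 libraries and LYZ was listed at 0 in all 5.

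Complement genes followed the same direction. Of 15 tested, 13 were separated higher and 0 lower, with a median log2 difference of 1.16 (smallest adjusted p = 0.263, limma). C3, the central protein of the cascade, was at 62.8, 72.5 and 91.1 TPM against 28.9 and 14.9 TPM. C1QB, a chain of the C1q complex that binds antibody on a target, was at 65, 140.5 and 82.1 TPM against 21.9 and 19.7 TPM. MASP1, a protease of the lectin pathway, was at 95, 109 and 144 TPM against 43.3 and 25.2 TPM. The groups do not overlap in any of the 3 genes. C1QA rested on 1 library: replicate 2 had 139.9 TPM, while replicates 1 and 3 had 22.1 and 25.8 TPM beside 19.6 and 20.4 TPM in naive skin. CFD, a protease of the alternative pathway that fat cells make in large amounts, was at 3151, 4023 and 5517 TPM against 1580 and 1113 TPM. In the unbitten EF19-5 library C3 (30.6 TPM), MASP1 (54.8 TPM) and CFD (1707 TPM) lay between the groups. C1QC, at 50.3 TPM there, lay within the saliva immune range of 46.3 to 102 TPM, while Cd46, at 0.243 TPM, lay below both CK1 naive libraries. C5 and C6 were listed at 0 in all 5 libraries.

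Neutrophil genes were separated higher in 11 of 12 tested and lower in 0, with a median log2 difference of 1.21 (smallest adjusted p = 0.263, limma). The subunits of the phagocyte oxidase are shared by neutrophils and macrophages and made up much of the list. NCF4, an oxidase subunit of the cytosol, was at 12.6, 31.1 and 14.7 TPM against 2 and 2.42 TPM, the largest log2 difference of the named genes with a symbol at 2.57 (SE 0.674, adjusted p = 0.263 by limma). NCF1, another such subunit, was at 3.67, 7.72 and 4.82 TPM against 1.37 and 0.607 TPM. CYBB, the catalytic subunit in the membrane, was at 2.2, 5.71 and 4.72 TPM against 1.22 and 0.731 TPM. Replicate 2 was highest in all 3, and the groups do not overlap. Unbitten EF19-5 skin lay between the groups in NCF4 (9.5 TPM) and NCF1 (2.6 TPM) and within the saliva immune range in CYBB (3.33 TPM). For the subunit CYBA it was at 82.1 TPM, below both CK1 naive libraries.

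Genes closer to neutrophils alone varied more. S100A9, a calcium-binding alarmin of neutrophils and stressed keratinocytes, was at 1139, 416 and 277 TPM against 116 and 80.8 TPM, with replicate 1 far above the others. The chemokine receptors Cxcr1 and Cxcr2 were at 0.992 to 3.71 TPM in saliva immune skin and at 0.0837 to 0.955 TPM in naive skin. ELANE, the elastase of neutrophil granules, was listed at 0 in both naive libraries and was at 0.461, 1.4 and 1.42 TPM in saliva immune skin. MPO, the peroxidase of the same granules, was listed at 0 in all 5 libraries, and CSF3R, LTF and MMP8 stayed below the filter. S100A8 was not matched by symbol.

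**Figure D2:**
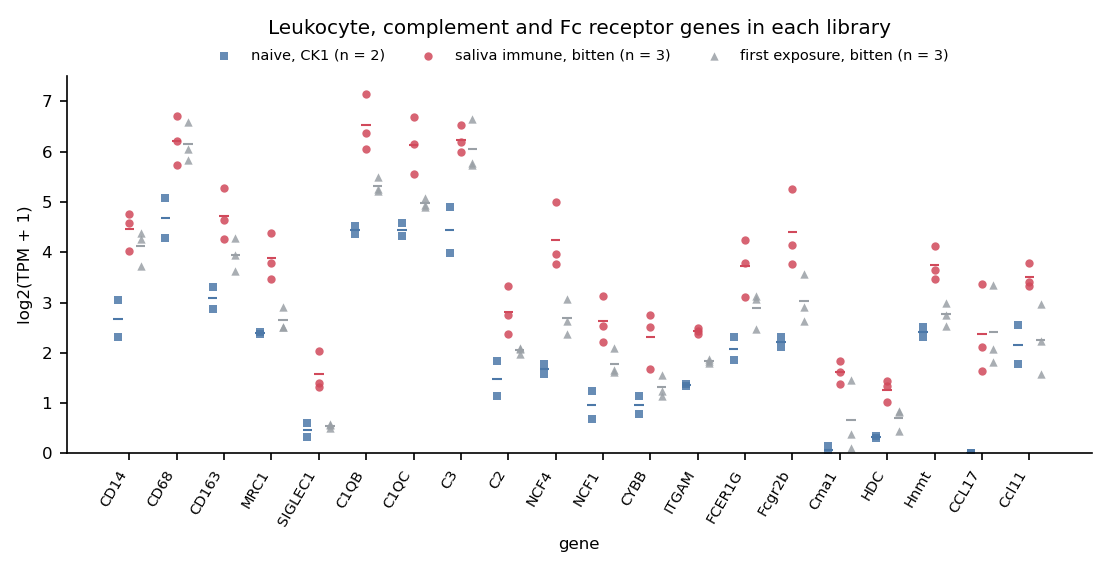
Each point is a library's level of a gene as log2(TPM + 1), for naive (n = 2), saliva immune (n = 3) and first exposure (n = 3) skin, with bars at the group means. The saliva immune points of all 20 genes lie above the naive points; for SIGLEC1, C1QB, C1QC and MRC1 the first exposure points stay near the naive level or between the 2 groups.

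Mast cell and basophil genes were separated higher in 9 of 12 tested and lower in 0, with a median log2 difference of 0.76 (smallest adjusted p = 0.294, limma). Cma1, the chymase of mast cell granules, was at 2.06, 2.57 and 1.62 TPM in saliva immune skin and at 0.115 and 0 TPM in naive skin. HDC, the enzyme that makes histamine, was at 1.72, 1.53 and 1.04 TPM against 0.236 and 0.272 TPM. CPA3, the granule carboxypeptidase, was at 1.79, 2.27 and 1.88 TPM against 0.761 and 0.317 TPM. All 3 genes were low and none overlapped. KIT, which melanocytes also express, overlapped at 9.41, 6.45 and 14.4 TPM against 8.29 and 5.82 TPM, as did LTC4S and HPGDS.

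Receptors for antibody and for histamine were among the genes that lay higher. FCER1G, the signalling chain of the IgE receptor and of activating IgG receptors, was at 7.65, 18 and 12.9 TPM against 3.98 and 2.62 TPM. Fcgr2b, the inhibitory IgG receptor, was at 12.7, 37.4 and 16.7 TPM against 3.95 and 3.32 TPM, with replicate 2 high. HRH1, the histamine receptor of vessels and sensory nerves, was at 3.67, 3.58 and 5.14 TPM against 1.6 and 1.1 TPM. Hnmt, which degrades histamine inside cells, was at 10, 16.4 and 11.5 TPM against 4.75 and 3.98 TPM. In the unbitten EF19-5 library FCER1G (9.5 TPM) and Fcgr2b (15.2 TPM) lay within the saliva immune range. HRH1 (2.83 TPM) and Hnmt (9.01 TPM) lay between the groups there. The Fc receptor and antibody handling list had 5 of 7 genes separated higher and a median of 0.92. The itch, histamine and pain list had 5 of 14 higher and 1 lower, with a median of 0.32. The smallest adjusted p was 0.294 in both lists (limma).

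T cell genes were low. The deposited table held 22 of the 26 listed, and 8 of those were tested; 5 of the 8 were separated higher, with a median log2 difference of 0.79 (smallest adjusted p = 0.33, limma). CD3E, a chain of the T cell receptor complex, was at 2.12, 3.94 and 5.27 TPM against 1.88 and 0.729 TPM, and CD3D at 1.37, 2.93 and 3.23 TPM against 0.652 and 0.985 TPM. In the unbitten EF19-5 library CD3E (2.35 TPM) and CD3D (2.08 TPM) lay within the saliva immune range. Among the separated genes, CD3D, CD247 and LAT lay under 1 TPM in both naive libraries. The filter admitted them only through the saliva immune libraries, which favours a higher reading. The list median turned to -0.11 with a filter of 5 TPM, which tests fewer of these genes. Genes of B and plasma cells showed no common direction: 1 of 8 was separated higher and 1 lower. The lower one was MZB1, a chaperone of antibody-secreting cells, at 3.49, 5.35 and 1.34 TPM against 6.61 and 10.6 TPM. Unbitten EF19-5 skin, at 0.856 TPM, lay below the saliva immune range in MZB1. MS4A1, the B cell antigen CD20, was listed at 0 in all 5 libraries. Of the 11 genes listed for eosinophils, 3 were matched and 0 were tested, with EPX listed at 0 throughout.

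Type 2 genes were mixed, with 4 of 14 separated higher, 1 lower and a median log2 difference of 0.50 (smallest adjusted p = 0.295, limma). CCL17, a chemokine that draws T helper 2 cells, was listed at 0 in both naive libraries and stood at 2.12, 3.35 and 9.32 TPM in saliva immune skin. Ccl11, the eosinophil chemokine eotaxin, was at 9.12, 12.9 and 9.61 TPM against 4.9 and 2.41 TPM. Ptgdr2, a prostaglandin D receptor of T helper 2 cells, basophils and eosinophils, was at 2.17, 2.9 and 4.82 TPM against 0.999 and 0.259 TPM. The groups are apart in all 3. CHI3L1, a chitinase-like protein, was at 19.3, 8.95 and 3.37 TPM against 2 and 1.74 TPM. POSTN, a matrix protein that interleukin 13 induces in other settings, lay lower at 175, 121 and 249 TPM against 298 and 309 TPM. GATA3, IL4R and ARG1 overlapped, and the interleukins Il4, Il5 and IL9 were listed at 0 in all 5 libraries.

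Interferon and antigen presentation genes lay higher in part. The interferon gamma list had 7 of 11 separated higher with a median of 0.77, the type I interferon list 7 of 13 with 0.42, and antigen presentation 6 of 13 with 0.74; 0 genes of the 3 lists were separated lower. The receptor chains IFNGR1 (43.8, 38.7 and 34.8 TPM against 23.9 and 13.7 TPM) and IFNGR2 (95.2, 80.3 and 96.6 TPM against 47.9 and 35.2 TPM) were clear of the naive libraries. CXCL10, a chemokine that interferon gamma induces, overlapped at 4.27, 6.18 and 12.2 TPM against 5.46 and 3.05 TPM, and Ifng itself was listed at 0 in all 5 libraries. Il18, a cytokine that macrophages and keratinocytes release, was at 19.9, 24.5 and 18.9 TPM against 8.22 and 5.25 TPM. IL18BP, its soluble inhibitor, was at 7.88, 11.4 and 18.4 TPM against 3.89 and 3.66 TPM (adjusted p = 0.199, limma). IL1B, read as Il1b in the table, was at 5.24, 3.2 and 4.02 TPM against 1.6 and 0.9 TPM, and IL6 was not matched. In the unbitten EF19-5 library Il1b (3.57 TPM) lay within the saliva immune range. Il18 (18.1 TPM) and IL18BP (6.82 TPM) lay between the groups there. First exposure skin overlapped with saliva immune skin in Il1b, Il18 and IL18BP.

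Fat cell genes formed the other large group on the higher side. Of 19 tested, 13 were separated higher and 0 lower, with a median log2 difference of 1.26 (smallest adjusted p = 0.26, limma). LEP, the satiety hormone leptin, was at 1218, 906 and 3114 TPM against 401 and 240.2 TPM. ADIPOQ, the adipocyte hormone adiponectin, was at 692, 639 and 1253 TPM against 266 and 82.9 TPM. PLIN1, the coat protein of fat droplets, was at 87.3, 87.3 and 199 TPM against 41.8 and 13.6 TPM. Saliva immune replicate 3 was highest and naive replicate 2 lowest in all 3 genes. Without naive replicate 2 the count stayed at 13 of 19, where 22% of all genes were separated higher, and the median was 0.79. The summed share of the list's genes was 0.724% to 1.36% of all TPM in saliva immune skin, 0.265% and 0.405% in naive skin and 0.689% to 1.7% in first exposure skin. ANGPTL4, an inhibitor of lipoprotein lipase, was at 19.7, 19.3 and 18.3 TPM against 5.25 and 2.57 TPM (adjusted p = 0.101, limma). Unbitten EF19-5 skin had a list share of 0.547%, between the groups, as were ADIPOQ (352 TPM) and PLIN1 (48.5 TPM). LEP (1267 TPM) and ANGPTL4 (19 TPM) lay within the saliva immune range in that library.

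Blood vessel genes were separated higher in 13 of 24 tested and lower in 0, with a median log2 difference of 0.62 (smallest adjusted p = 0.366, limma). ESAM, an adhesion molecule of endothelial junctions, was at 14, 17.7 and 16.2 TPM against 9.22 and 4.76 TPM. Matrix remodelling enzymes were separated higher in 12 of 27 and lower in 0, with a median of 0.48, among them MMP9 (5.51, 2.11 and 1.18 TPM against 0.71 and 0.0926 TPM), the gelatinase of neutrophils and migrating keratinocytes. In hemostasis 7 of 19 genes were separated higher and 1 lower, with a median of 0.46 that became -0.01 without naive replicate 2. Of these, PLAUR, the receptor that holds urokinase at the cell surface, was at 8.81, 6.45 and 6.05 TPM against 2.21 and 1.63 TPM, and TFPI2, a protease inhibitor, at 6.35, 8.69 and 7.11 TPM against 2.09 and 1.53 TPM (adjusted p = 0.254 and 0.219, limma). PTGES, the terminal enzyme of prostaglandin E2 synthesis, was at 18.8, 16.6 and 18.9 TPM against 8.95 and 5.59 TPM, while Pla2g2a, a secreted phospholipase, was at 3, 1.15 and 0.321 TPM against 4.58 and 7.57 TPM.

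Keratinocyte genes mostly overlapped. None of the 17 basal keratinocyte genes was separated in either direction, and their median of 0.29 turned to -0.20 without naive replicate 2. Of 15 epidermal differentiation genes 2 were separated higher, both kallikrein proteases that loosen the outer epidermis. KLK13 was at 36.3, 31.9 and 26.9 TPM against 10.3 and 5.45 TPM, and KLK8 at 35.9, 36.6 and 45.7 TPM against 22.7 and 9.95 TPM. In the unbitten EF19-5 library KLK8, at 46.2 TPM, lay above every saliva immune library, and KLK13, at 12.8 TPM, lay between the groups. The median of that list, 0.50, became -0.13 when the muscle list and naive replicate 2 were left out together. SLURP1, a secreted keratinocyte protein, was at 63.6, 29.6 and 24.7 TPM against 8.65 and 3.7 TPM. CERS4, a ceramide synthase, was at 138, 164 and 135 TPM against 42.6 and 23.5 TPM (log2 difference 2.16, SE 0.338, adjusted p = 0.101 by limma). CD207, the Langerhans cell lectin, overlapped at 23.4, 12.6 and 28.8 TPM against 26.1 and 13.8 TPM.

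**Figure D3:**
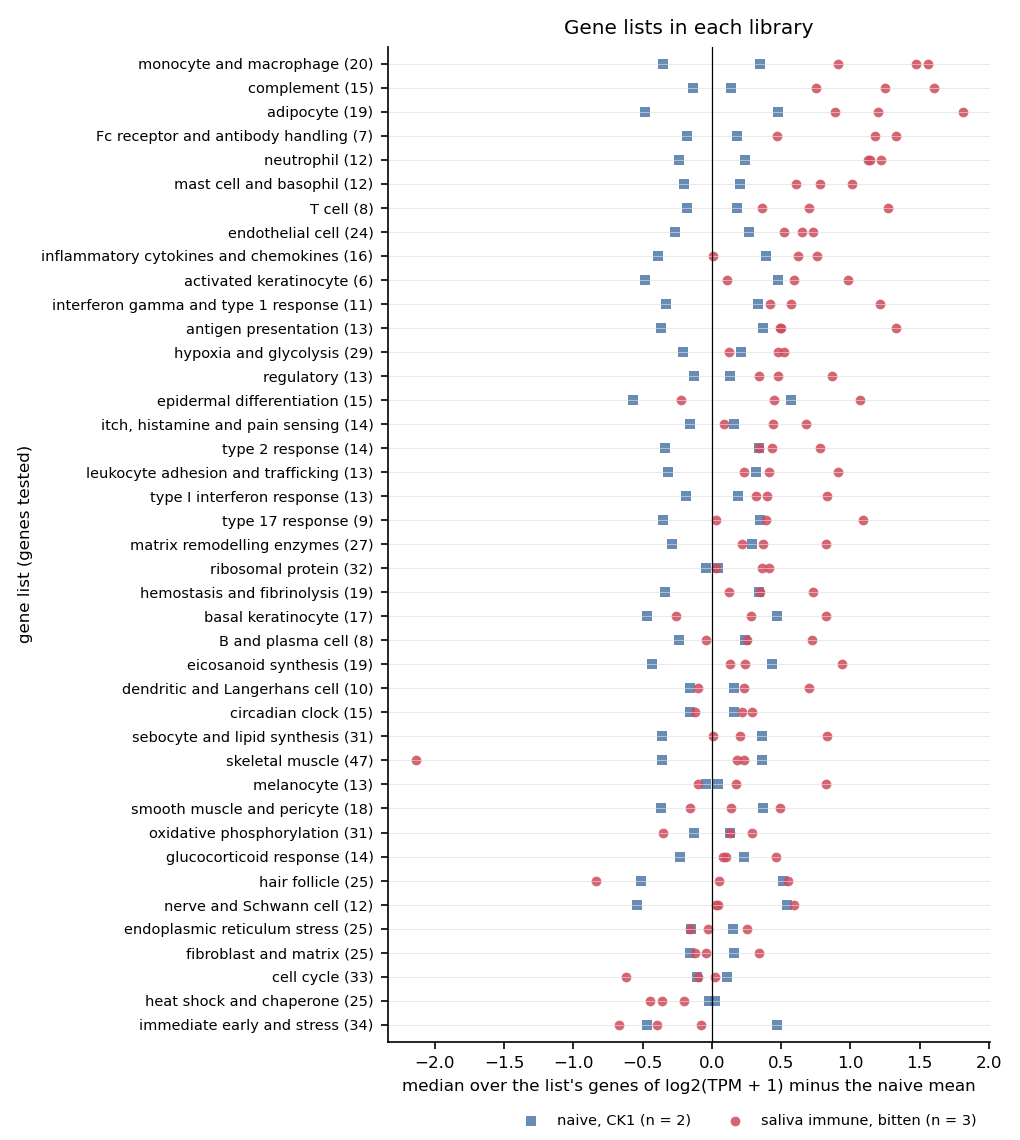
For each gene list, points give a library's median over the tested genes of log2(TPM + 1) minus the naive mean, for saliva immune (n = 3) and naive (n = 2) skin; the naive points mirror each other around 0 by construction. Macrophage, complement, adipocyte, neutrophil and mast cell lists have all 3 saliva immune points above both naive points, the chaperone list has all 3 below, and the muscle list is split by replicate 3 at -2.14.

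On the lower side were heat shock and chaperone genes, which help proteins to fold. Of 25 heat shock and chaperone genes, 11 were separated lower and 0 higher, beside 6.36% of all genes separated lower, and their median log2 difference was -0.39. None was called (smallest adjusted p = 0.101, limma). FKBP4, a cochaperone of steroid receptors, was at 170.1, 155 and 174 TPM in saliva immune skin and at 292 and 288 TPM in naive skin (log2 difference -0.80, SE 0.120). STIP1, which hands clients from HSP70 to HSP90, was at 97.1, 84.3 and 85.9 TPM against 153 and 149 TPM. HSP90AA1, the inducible HSP90, was at 606, 574 and 659 TPM against 1000 and 943 TPM. AHSA1, which speeds up the HSP90 ATPase, was at 114, 109 and 83.4 TPM against 153 and 170.2 TPM. The replicates of each group lay close together in these 4 genes. FKBP4 was called in 2 of the other 17 fits, those without the muscle list and with a muscle score as covariate. DNAJB1, HSPA8, HSPA4, HSP90AB1, HSP90B1, CHORDC1 and HSPB8 were the other 7, while the small heat shock proteins HSPB1 and HSPB6 overlapped. Without naive replicate 2 the count was 15 of 25, beside 14.1% of all genes.

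Immediate early genes, which cells switch on within minutes of a stimulus, lay lower in part. Of 34 tested, 6 were separated lower and 0 higher, with a median log2 difference of -0.33 (smallest adjusted p = 0.219, limma). ATF3, a stress-induced transcription factor, was at 77.5, 37.8 and 31.8 TPM against 252 and 129.7 TPM. NR4A1, an orphan nuclear receptor, was at 115, 94.8 and 23.1 TPM against 214 and 163 TPM. FOSB, an AP-1 subunit, was at 94.3, 67.7 and 22.3 TPM against 364 and 109 TPM. Naive replicate 1 was highest in all 3 genes, and saliva immune replicate 3 lowest. The count depends on the naive library: against naive replicate 1 alone, 27 of 34 lay lower (14.1% of all genes), and without naive replicate 1 the list median was 0.09. With median-of-ratios scaling 15 of 34 lay lower without overlap, beside 14.2% of all genes. DDIT3, a transcription factor of the unfolded protein response, was at 18.5, 29.9 and 18 TPM against 43.5 and 50.6 TPM (adjusted p = 0.242, limma). The unbitten EF19-5 library did not share the CK1 naive level in these genes. ATF3 (35.8 TPM), FOSB (33.9 TPM) and DDIT3 (26.6 TPM) lay within the saliva immune range there, and NR4A1 (20.7 TPM) lay below it. Of 33 cell cycle genes 5 were separated lower and 0 higher, with a median of -0.25.

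**Figure D4:**
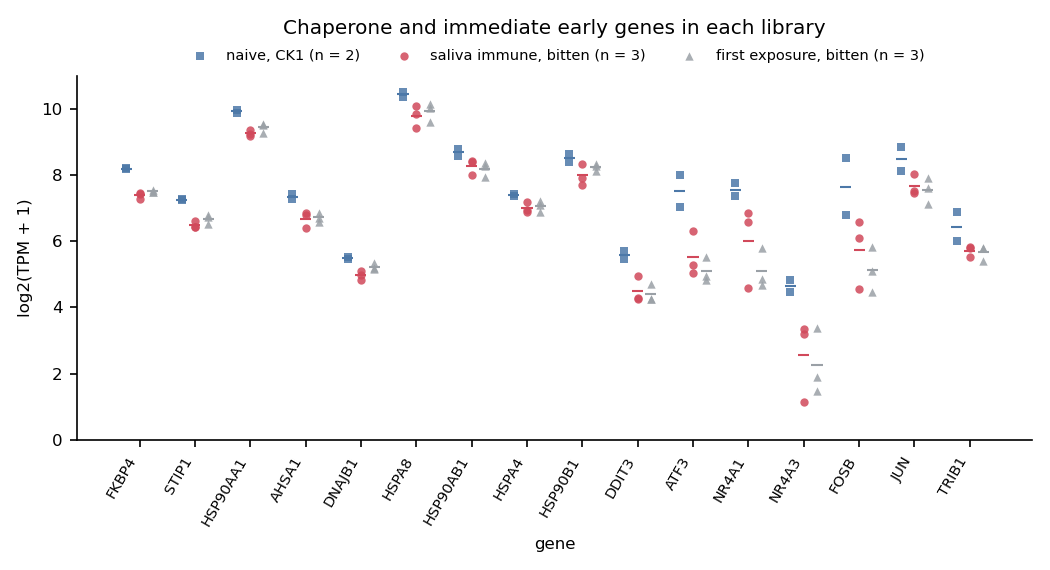
Each point is a library's level as log2(TPM + 1) for chaperone genes (left) and stress and immediate early genes (right) in naive (n = 2), saliva immune (n = 3) and first exposure (n = 3) skin, with bars at the group means. The naive points lie above the saliva immune points in all 16 genes, with tight replicates for FKBP4 and STIP1 and a wide spread for NR4A1, NR4A3 and FOSB.

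Among muscle genes, 11 of 47 tested were separated lower and 1 higher (TPM3, a slow tropomyosin), with a median log2 difference of -0.62 (smallest adjusted p = 0.199, limma). The 11 were ACTN3, ATP2A1, CASQ1, CKM, MYBPC2, MYL1, MYLPF, PVALB, TNNC2, TNNI2 and TNNT3, most of them known as fast fibre forms. PVALB, the calcium buffer parvalbumin of fast fibres, was at 351, 439 and 497 TPM against 1472 and 2568 TPM. ACTN3, the actinin of fast fibres, was at 857, 1367 and 617 TPM against 2671 and 4846 TPM. Outside the list, PRKAG3, an AMP kinase subunit of fast muscle, was at 9.9, 12.8 and 11.6 TPM against 48.7 and 83.7 TPM, and MSTN, the growth inhibitor myostatin, at 17.6, 21.6 and 18.8 TPM against 57.1 and 106 TPM. No saliva immune library reached the level of either CK1 naive library in these 4 genes, while the muscle shares of replicates 1 and 2 were close to that of naive replicate 1. The unbitten EF19-5 library had a muscle share of 2.65% and lay lower than both CK1 naive libraries in these genes. It was at 772 TPM for PVALB, 544 TPM for ACTN3, 11.8 TPM for PRKAG3 and 20.6 TPM for MSTN. Only PVALB lay above the saliva immune libraries there. Without saliva immune replicate 3 the list median turned to 0.17, with 18 genes (38.3%) separated higher and 11 (23.4%) lower. The shares of all genes in that setting were 22.6% and 12.8%. With median-of-ratios scaling 5 of 47 were separated lower, beside 14.2% of all genes.

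The kind of muscle differed between the libraries, a pattern singled out after the values were seen. MYH7, the myosin of slow fibres, stood at 40, 30.5 and 17.1 TPM per 1000 TPM of the muscle actin ACTA1 in saliva immune skin and at 9.25 and 5.6 in naive skin. PVALB stood at 16.2, 20.7 and 113 per 1000 TPM of ACTA1 against 77.2 and 75.7. Saliva immune replicate 3 thus lay with the naive libraries in PVALB and between the groups in MYH7. First exposure skin, at 38.7 to 52.6 for MYH7 and 20.6 to 41 for PVALB, lay near replicates 1 and 2. Such ratios within a library show unequal levels, not which gene changed, and the biopsy site is not given.

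**Figure D5:**
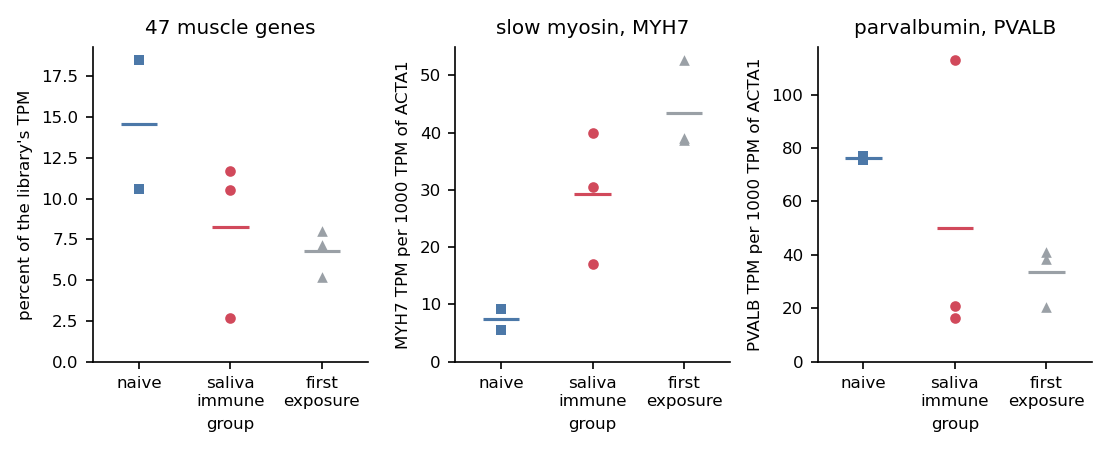
From left, the share of all TPM held by the muscle list in percent, and MYH7 and PVALB TPM per 1000 TPM of ACTA1, each point a library of naive (n = 2), saliva immune (n = 3) or first exposure (n = 3) skin with bars at the means. Muscle share overlaps between naive and saliva immune skin, MYH7 per ACTA1 is higher in every bitten library, and for PVALB 1 saliva immune library (113) lies above both naive libraries.

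Of the 15 named genes that lay highest, 4 were small nucleolar RNAs, which guide chemical marks onto ribosomal RNA. SNORD26 was at 13.6, 9.74 and 14.7 TPM against 2.28 and 1.67 TPM, and SNORD22 at 22.2, 13.5 and 23 TPM against 4.16 and 1.78 TPM (adjusted p = 0.101 and 0.124, limma). Counted over the family after these values were seen, 40 of 83 tested C/D box RNAs were separated higher and 0 lower, with a median log2 difference of 1.1. Of 32 H/ACA box RNAs, 12 were separated higher and 0 lower, with a median of 0.74. The summed C/D box level was 964, 570.2 and 1441 TPM in saliva immune skin against 505 and 317 TPM in naive skin. First exposure skin, at 421 to 866 TPM, overlapped with both, and the unbitten EF19-5 library, at 642 TPM, lay above both CK1 naive libraries and within the saliva immune range. These RNAs lie inside introns of other genes, and reads of the host and of the small RNA cannot be told apart here.

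The remaining named genes were of varied kinds. On the higher side, ASPG, an asparaginase, was at 181, 488 and 187 TPM against 55.3 and 48.9 TPM. MDK, the growth factor midkine, was at 5.68, 7.3 and 11.3 TPM against 0.71 and 1.04 TPM, and CDHR1, a cadherin best known from photoreceptors, at 6.58, 7.81 and 3.59 TPM against 0.655 and 0.441 TPM. On the lower side, SOX12, a transcription factor, was at 3.43, 6.2 and 6.63 TPM against 21.1 and 43.9 TPM (adjusted p = 0.124, limma), and MT3, a metallothionein, at 3.33, 15.5 and 2.35 TPM against 21.9 and 45.9 TPM. Of the 30 panel genes, 21 were tested, 4 (CD8A, MS4A1, MPO and IFNG) were below the filter and 5 (CD4, S100A8, IL6, KRT6A and KRT10) were not matched.

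Set against first exposure skin, which was bitten but not saliva immune, the test called 0 of the 14294 genes (limma, adjusted p of 1 for all). At an unadjusted p under 0.05, 262 genes (1.83%) lay higher in saliva immune skin and 66 (0.462%) lower; the fitted difference was above 0 in 54.7% of all genes and below 0 in 45.3%. All 3 saliva immune libraries lay above all 3 first exposure libraries in 777 genes (5.44%) and below in 173 (1.21%), a split that became 700 and 691 with median-of-ratios scaling. Fat cell genes were separated in 0 of 19 cases in either direction, with a median log2 difference of -0.16.

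Macrophage, complement and oxidase genes included members that lay above all first exposure libraries. The macrophage list had 7 of 20 genes separated higher, complement 7 of 15 and the neutrophil list 6 of 12, beside 5.44% of all genes, and 0 lower. SIGLEC1, the sialic acid lectin of tissue macrophages, was at 1.63, 3.08 and 1.5 TPM in saliva immune skin and at 0.429, 0.477 and 0.499 TPM in first exposure skin. C1QC, a C1q chain, was at 46.3, 102 and 69.9 TPM against 29.9, 32.7 and 29 TPM, and MRC1 at 4.7, 6.51 and 4.71 TPM in first exposure skin lay below all 3 saliva immune values given above. ITGAM, the integrin chain of complement receptor 3, was at 4.67, 4.42 and 4.18 TPM against 2.66, 2.48 and 2.59 TPM. Naive skin also lay below the saliva immune libraries, at 0.253 and 0.52 TPM for SIGLEC1 and 1.62 and 1.52 TPM for ITGAM. Leaving out saliva immune replicate 2, the highest library for many of them, gave 8 of 20, 7 of 15 and 6 of 12 separated higher, beside 14.1% of all genes, with 1 macrophage and 1 complement gene separated lower.

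Matrix genes showed another order. Of 25 fibroblast and matrix genes, 10 (40%) were separated higher than in first exposure skin and 0 lower (median 0.37), beside 5.44% and 1.21% of all genes. Against naive skin 6 (24%) were separated higher and 4 (16%) lower (median 0.04), beside 18.3% and 6.36% of all genes. The higher count against naive skin thus lay near the background. FN1, the matrix glycoprotein fibronectin, was at 86.1, 97.8 and 78.8 TPM in saliva immune skin, 27.8, 24.9 and 23.2 TPM in first exposure skin and 85.7 and 105 TPM in naive skin. FBN1, the microfibril protein fibrillin, was at 31.2, 32.2 and 27.2 TPM, 15.7, 9.35 and 9.49 TPM, and 30.2 and 41.5 TPM in the same order. In both genes the saliva immune libraries overlap with naive skin and lie clear of first exposure skin.

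LITAFD, singled out after its values were seen, is the one gene listed at 0 in both naive and all 3 first exposure libraries and at 1 TPM or more in every saliva immune library, with 1.49, 1.11 and 1.2 TPM (adjusted p = 0.199 against naive and 1 against first exposure skin, limma). Of the 19 genes listed at 0 in naive skin and at 1 TPM or more in all 3 saliva immune libraries, the other 18 were above 0 in at least one first exposure library. FKBP5, a glucocorticoid-induced cochaperone, was separated lower than in first exposure skin at 19, 20.5 and 22.9 TPM against 37.1, 23.8 and 29.4 TPM, and higher than in naive skin at 14.3 and 11.2 TPM. CXCL10 was at 8.8, 20 and 57.2 TPM in first exposure skin, which overlaps with the saliva immune libraries.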

How the data were processed

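RNA of guinea pig skin was isolated with a Qiagen RNeasy kit and sequenced after Illumina library preparation, per the labels' protocols. The authors deposited TPM for 26855 genes in 13 libraries. Trimmomatic, StringTie and DESeq are listed, per the submitters' processing notes, with neither a version nor a step. The aligner, build and annotation: not given in the sources used here. TPM divides out depth, so the depth of each library is unknown and a gain in 1 tissue lowers the share of the others. The RefSeq gene table at hand holds no Ensembl identifiers, so unnamed genes keep theirs and no coordinates are given.

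Genes with 1 TPM or more in at least 2 of the 5 libraries entered limma 3.58.1 (R 4.3.3) as log2(TPM + 1) values (empirical Bayes with an intensity trend, Benjamini-Hochberg adjustment over all tested genes, two-sided). The model held 5 groups and the experiment over all 13 libraries. A difference on this scale understates the change of low genes. The script was tested on simulated data. Values were read with the R package data.table, version 1.17.8, and tables were made with pandas 2.3.3 and numpy 2.4.6. No 2 libraries held identical values.

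The members and the 44 gene lists (1193 entries, matched by symbol without regard to case) were chosen with earlier results of these data known. A few genes within the list counts are not reported here by name. Named genes are those called, the 15 largest differences each way among genes with a symbol, 5 TPM or more in the higher group and no overlap, the 4 genes of smallest p in each list, and a fixed panel of 30; other genes are given as list members or as chosen after their values were seen. Alternatives were other sets of libraries, a pseudocount of 0.1, no filter or one of 5 TPM, median-of-ratios scaling, quantile normalization, array weights, muscle genes removed or a muscle score as covariate, no intensity trend, and leaving out each library.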

Additional observations from a re-analysis of the deposited data

Results flagged for a closer look

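The EF19-5 libraries, which the comparison did not use, were read for the 19 genes listed at 0 in both CK1 naive libraries and at 1 TPM or more in all 3 saliva immune libraries. Of these 19, 4 were listed at 0 in the EF19-5 naive library and above 0 in all 4 repeatedly bitten libraries (2 bites and 3 bites). ENSCPOG00000008260 was at 504 TPM or more there, with a highest value of 1365 TPM. LITAFD was at 3.15 to 6.82 TPM, above every saliva immune value. CCL17 was at 1.81 to 11.4 TPM and ENSCPOG00000036317 at 1.29 to 1.94 TPM. Others of the 19 were also above 0 in all 4 bitten libraries, but not at 0 in the naive library. SPINK7 was at 12.4 to 52.3 TPM there beside 1.99 TPM in the naive library, and LPO at 3.35 to 14.4 TPM beside 0.521 TPM. With a single naive library in that experiment these differences were not tested here. Groups of 2 or 3 libraries are too small for a search for single outlying values.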

How the results depend on the processing

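The count of genes called against naive skin, 1 in all, was 1 with the libraries of the 2 groups only, 2 with a filter of 5 TPM, 3 with a pseudocount of 0.1 and with median-of-ratios scaling, 4 with the 8 CK1 libraries and with quantile normalization, 5 without a filter and with array weights, 6 without the muscle list and without an intensity trend, and 8 with a muscle score as covariate. Leaving out each library gave 1 to 3. Against first exposure skin, 0 were called, 1 with the 8 CK1 libraries, 147 with array weights, and 0 to 1 leaving out each library. The weights were 7.35 for saliva immune replicate 1 and 0.259 for replicate 3, so that fit rests on few libraries. Which genes make up these counts was not compared. Genes higher at an unadjusted p under 0.05 ranged from 339 without naive replicate 2 to 2002 without naive replicate 1, and with quantile normalization 883 lay higher and 962 lower; the cause was not tested. Of 190 named genes, 181 kept their sign in every other fit that tested them (14 to 17 fits a gene). For the other 9, the log2 difference by setting was as follows. CD207 (0.10) was -0.07 with median-of-ratios scaling, -0.06 with quantile normalization, -0.11 with a muscle score and -0.37 without naive replicate 2 and the muscle list together; that last fit gave KPRP -0.10, KRT82 -0.16, PERP -0.11 and EREG -0.03. Array weights gave ARG1 0.11 and CTSW -0.38, and median-of-ratios scaling gave SDHC -0.03. Leaving out each library ran from -0.71 to 0.50 for ARG1, -0.33 to 0.54 for CD207, -0.67 to 0.48 for GATA3, -0.07 to 1.58 for KPRP, -0.13 to 1.51 for KRT82 and -0.07 to 0.82 for PERP, with naive replicates 1 and 2 at the ends. The macrophage, complement, neutrophil, mast cell and adipocyte medians stayed above 0 and the chaperone median below 0 in all 17. No paired analysis was possible because the titles give no replicate numbers shared between the groups. Depth is unknown, and the 2 naive libraries set the precision.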

Other observations

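Of 29 hypoxia and glycolysis genes, 8 (27.6%) were separated higher, beside 18.3% of all genes, and 1 lower, with a median log2 difference of 0.34. Without naive replicate 2 the share was 27.6% beside 22% of all genes, with a median of 0.07, so the list lay near the background. SLC16A3, which exports lactate, was at 38.1, 36.2 and 13.3 TPM against 8.96 and 9.71 TPM, and PFKP, a phosphofructokinase, at 42.3, 37.6 and 51.8 TPM against 28.8 and 14.4 TPM (adjusted p = 0.264 and 0.289, limma). Unbitten EF19-5 skin, at 60.5 TPM for PFKP, lay above every saliva immune library. Among 13 genes of immune regulation 6 were separated higher and 0 lower, with IL10RA, a chain of the interleukin 10 receptor, at 3.93, 6.19 and 5.73 TPM against 1.98 and 1.55 TPM. Among 13 genes of leukocyte adhesion 6 were separated higher and 0 lower, with ITGB2, the common chain of leukocyte integrins, at 5.24, 7.49 and 8.81 TPM against 4.04 and 1.8 TPM. Ribosomal protein genes were separated higher in 11 of 32 cases, a count that was 0 with median-of-ratios scaling.

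In smooth muscle and pericytes the members went both ways. The pericyte gene RGS5 was at 23.1, 28.7 and 30.9 TPM against 18.6 and 9.7 TPM, and LMOD1, an actin nucleator of smooth muscle, at 20.2, 22.1 and 10.5 TPM against 30 and 43.4 TPM. Among hair follicle genes 1 of 25 was separated, LEF1, a transcription factor of Wnt signalling, at 42.9, 18.9 and 39 TPM against 48 and 44.8 TPM.

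HOX genes, which mark position along the body, separated libraries within a group; they were singled out after their values were seen. HOXB6 was at 0.768, 0.719 and 11.8 TPM in saliva immune skin, 8.83 and 5.62 TPM in naive skin and 0.104 to 0.929 TPM in first exposure skin. Saliva immune replicate 3 lay above both naive libraries in this gene, and the other 2 replicates with first exposure skin. Other HOX genes gave another order: HOXC10 was at 2.58, 3.69 and 0.769 TPM in saliva immune skin against 4.85 and 7.09 TPM, and HOXD9 at 25, 25 and 9.4 TPM against 18.9 and 26.9 TPM, with replicate 3 the farthest from naive skin in both. Of 20 HOX genes tested, 3 were separated higher and 2 lower than in naive skin, with a median of -0.09, beside 18.3% and 6.36% of all genes. Against first exposure skin 4 of the 20 were separated higher and 0 lower, beside 5.44% and 1.21% of all genes. One, HOXC8, was at 7.89, 6.7 and 11.4 TPM against 0.521, 4.98 and 1.33 TPM, with naive skin at 10.5 and 9.92 TPM. The part of the HOX genes in the other results was not tested.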
